A study of Mus musculus with 2 samples.

Results

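The Gimap genes encode GTPases of immunity-associated proteins, a family of small GTP-binding proteins. Mice carry 8 named members in a single cluster on chromosome 6. The members were chosen by symbol: Gimap1, Gimap3, Gimap4, Gimap5, Gimap6, Gimap7, Gimap8 and Gimap9. All 8 were found among the 37820 genes of the deposited gene table. All 8 were also found among the 28009 genes that could be built from the deposited transcript table, where they had 21 of 87641 transcripts.

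The values came from polyadenylated RNA of haematopoietic stem cells (HSCs), the self-renewing cells at the root of all blood lineages, in a study that set fetal against adult HSCs. The adult group held 2 samples (replicates 1 and 2) of bone marrow HSCs from B6129SF1 mice 6 to 8 weeks old, with no transgene or treatment in the labels. The extraction protocol also names E14.5 fetal liver. The sources used here do not state its strain, which markers defined the sort, or how many mice went into a library. Each table has 1 column headed FL and 1 headed BM, in FPKM (mapped fragments scaled by feature length and library total). Each column was read as the authors' mean, so there was no spread between libraries, no test was possible, and the sequencing depth is unknown. "Higher" and "lower" below describe these columns only. Of 12 HSC markers, 12 reached 1 FPKM in at least 1 column of each table. The stem cell factor receptor gene Kit was at 112 (FL) and 181 FPKM (BM) in the transcript table and at 35.5 and 117 FPKM in the gene table. The list had 3 members at least 2-fold higher and none lower in BM of the transcript table (median 0.64 on the relative log2 scale defined below), and 5 higher and 4 lower in the gene table (median 0.63).

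GIMAP proteins share an AIG1-type GTP-binding domain that is related to that of septins, and several sit on intracellular membranes through their C-terminal part. They are best known from lymphocytes. Loss of Gimap5 in rodents leaves few T cells and NK cells and also disturbs the quiescence and survival of HSCs, and loss of Gimap1 strongly reduces mature B and T cells. Several members have been linked to BCL2-family survival proteins, and Gimap6 to the autophagy protein GABARAPL2.

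The members stand next to one another in the order Gimap8, Gimap9, Gimap4, Gimap6, Gimap7, Gimap1, Gimap5, Gimap3 in the GENCODE annotation. Gimap6 and Gimap3 lie on the minus strand. The 250 bases before the start are shown for 4 members: Gimap4, which was the odd one out in the comparisons below; Gimap6, whose level varied least; and Gimap3 and Gimap7, which were near 0 in a single column. They are from RefSeq, build GRCm38.p6, 5′ to 3′ on the gene's strand. The deposited values rest on mm9, so genes were matched by name only. Capitals mark the letters AGGAAG (a form of the ETS core) and TGTGGT (the RUNX core) on either strand. Other forms of these cores were not marked, so a window without capitals, such as that of Gimap6, may still hold them.
Gimap4 (chr6:48684328-48684577, plus strand): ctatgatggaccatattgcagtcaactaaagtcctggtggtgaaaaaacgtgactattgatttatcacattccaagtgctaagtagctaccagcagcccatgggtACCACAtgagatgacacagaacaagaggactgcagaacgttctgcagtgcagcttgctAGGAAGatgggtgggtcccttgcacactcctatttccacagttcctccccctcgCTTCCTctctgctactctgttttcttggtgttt
Gimap6 (chr6:48708245-48708494, minus strand): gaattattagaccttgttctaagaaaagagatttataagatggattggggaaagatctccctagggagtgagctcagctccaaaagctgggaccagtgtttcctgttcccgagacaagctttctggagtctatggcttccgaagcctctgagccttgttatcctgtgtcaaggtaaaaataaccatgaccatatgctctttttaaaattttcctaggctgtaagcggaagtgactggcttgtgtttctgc
Gimap3 (chr6:48770852-48771101, minus strand): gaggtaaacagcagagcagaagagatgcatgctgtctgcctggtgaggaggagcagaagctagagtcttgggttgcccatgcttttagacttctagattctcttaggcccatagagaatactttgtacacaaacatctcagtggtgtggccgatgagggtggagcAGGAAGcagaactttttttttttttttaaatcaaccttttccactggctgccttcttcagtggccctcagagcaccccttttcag
Gimap7 (chr6:48718371-48718620, plus strand): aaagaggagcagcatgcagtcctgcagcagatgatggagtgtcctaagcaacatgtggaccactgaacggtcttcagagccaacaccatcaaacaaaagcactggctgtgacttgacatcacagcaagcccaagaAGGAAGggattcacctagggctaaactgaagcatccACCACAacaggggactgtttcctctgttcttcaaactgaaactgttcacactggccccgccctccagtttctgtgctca

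RefSeq lists 9 start sites for the 8 genes, since Gimap8 has a pair. Of these 9 windows 7 held AGGAAG, against 29.5% of all 32851 mouse windows of the same length. TGTGGT was in 3 of 9, those of Gimap1, Gimap4 and Gimap7, against 14.0% of all. The GATA letters AGATAA and the Ikaros letters TGGGAA were in none, against 9.99% and 21.6% of all. Only these exact letters were searched for each factor. Other forms of its site were not counted, so a window without the letters may still hold a site. Gimap4 was the member with 2 copies of AGGAAG, beginning 87 and 33 bases before the start. The windows held 1 to 8 CpG each, where the median of all windows was 6 and the upper quartile 16. The 8 CpG were in the window of Gimap9, and the other windows had 3 or fewer. These are letter matches, and nothing about binding was measured. The motifs were chosen after the expression values were known.

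Gimap1 and Gimap6 were the abundant members in all 4 columns. Together they held 77.4% of the family's FPKM in FL and 77.2% in BM of the transcript table, and 70.6% and 77.7% in the gene table. Gimap1, a membrane-anchored member that mature lymphocytes need, was at 120 FPKM (FL) and 135 FPKM (BM) of the transcript table. In the gene table it was at 76.3 FPKM (FL) and 159 FPKM (BM). Gimap6, the member tied to autophagy, was at 120 and 98.4 FPKM in the transcript table and at 129 and 128 FPKM in the gene table. Gimap6 thus stayed between 98.4 and 129 FPKM in all 4 columns, while Gimap1 was low in the FL column of the gene table. They ranked 764 and 763 of 28009 genes in FL of the transcript table, and 501 and 780 in BM.

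The middle of the family was formed by Gimap5, Gimap9 and Gimap8. Gimap5, a lysosomal membrane protein and the member with a known role in HSCs, was at 21.9 FPKM (FL) and 32.8 FPKM (BM) of the transcript table, and at 15.0 and 23.0 FPKM in the gene table. Its BM value was the higher in each table by that table's own headers. Its 23.0 FPKM in BM of the gene table lay close to its 21.9 FPKM in FL of the transcript table. The same direction in each table is therefore not read as a repeat. Gimap9 was at 25.5 and 16.3 FPKM in the transcript table and at 16.1 and 27.8 FPKM in the gene table, so the order of its columns turned between the tables. Gimap8, known for a large protein with several GTP-binding domains in tandem, was at 9.50 and 11.7 FPKM in the transcript table. In the gene table it was at 7.27 and 16.8 FPKM. Its only transcript in the transcript table has a coding sequence of 1047 bases, where that of Gimap4 has 984. The transcript table value may therefore not stand for the form with several domains.

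The remaining members were low, with an exception for Gimap4. Gimap4, which is known to act in T cell death, was at 8.78 FPKM (FL) and 2.81 FPKM (BM) of the transcript table, and at 46.8 FPKM (FL) and 9.16 FPKM (BM) of the gene table. It was thus the third most abundant member in FL of the gene table and the sixth or seventh in the other columns. Gimap3, a close relative of Gimap5 that is found on mitochondria and the endoplasmic reticulum, was at 3.24 and 3.95 FPKM in the transcript table and at 0.0335 and 3.67 FPKM in the gene table. Gimap7, a GTPase known from lipid droplets, was at 1.49 and 1.23 FPKM and at 0.0818 and 1.86 FPKM. All 8 members were at 1 FPKM or more in 3 of the columns, and 6 of 8 in FL of the gene table.

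**Figure D1:**
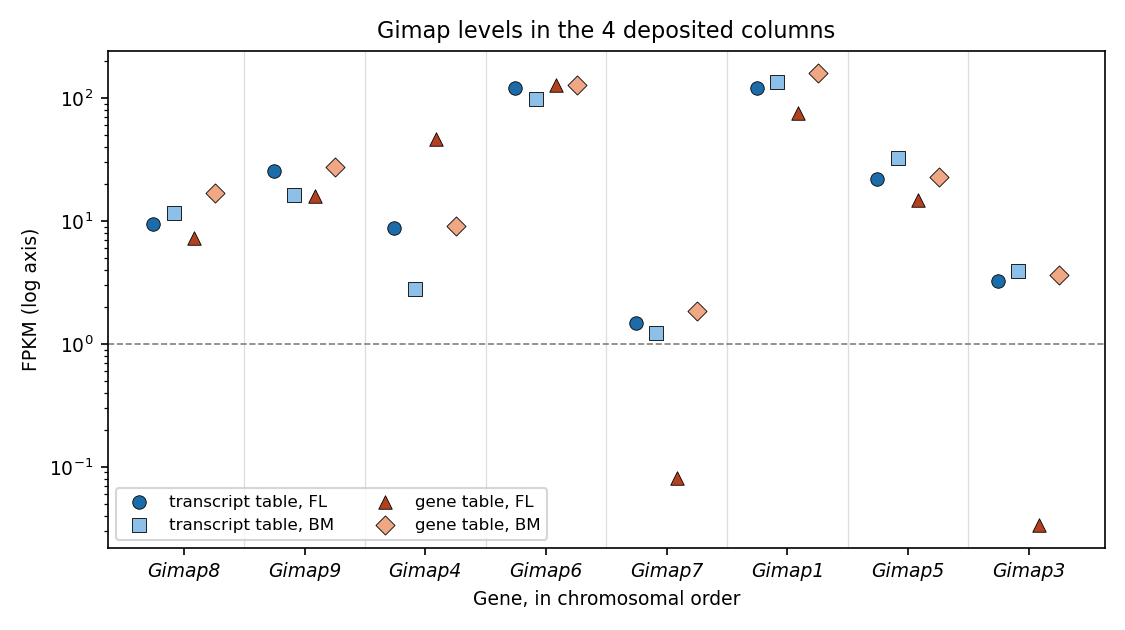
FPKM (log axis) of each Gimap gene in the FL and BM columns of both tables, genes in chromosomal order; each point is 1 authors' mean and the dashed line is 1 FPKM. Gimap1 and Gimap6 lie at the top in every column, Gimap4 has its highest value, 46.8 FPKM, in FL of the gene table, and Gimap3 and Gimap7 drop to 0.0335 and 0.0818 FPKM there.

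The order of levels was alike in 3 columns. BM of the gene table ran Gimap1, Gimap6, Gimap9, Gimap5, Gimap8, Gimap4, Gimap3, Gimap7. FL of the transcript table had the same order except that Gimap6 and Gimap1 were level at 120 FPKM. BM of the transcript table differed from it by Gimap5 above Gimap9 and by Gimap3 above Gimap4. With no spread between libraries, neighbours in these orders cannot be said to differ. The summed family was at 311 FPKM (FL) and 303 FPKM (BM) of the transcript table, which was 0.0523% and 0.0574% of all summed FPKM. In the gene table the sums were 290 FPKM for FL (0.0494%) and 370 FPKM for BM (0.0528%).

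The Gimap genes were also used to set the columns of the tables against each other. The members' values in BM of the gene table lay closest to those in FL of the transcript table. All 8 were 0.06 to 0.82 higher (log2) in the former, and 5 of 8 were within 1.25-fold. Only 2 of 8 were within 1.25-fold between the columns headed BM, 1 of 8 between those headed FL, and 1 of 8 between FL of the gene table and BM of the transcript table. The largest gap in the closest pairing was Gimap8, for which 1 of 3 annotated transcripts was in the transcript table. Gimap7, also with 1 of 3, had a gap of 0.33, and the reason for the Gimap8 gap was not tested. The headers of these columns are therefore in doubt: the match does not show which of the matching columns is named wrongly, so neither table's BM over FL can be taken with certainty as adult over fetal. Because the same values would then enter the tables' ratios on opposite sides, the tables are described apart and their directions are not independent.

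The first comparison was BM over FL in the transcript table. The Gimap genes lay mostly within 2-fold in it, as did most genes. The relative log2 ratio is log2((BM + 0.1)/(FL + 0.1)) minus its median over all genes that reached 1 FPKM in FL and in BM. It understates differences of low genes. A gene is called at a 2-fold difference, among genes at 1 FPKM or more in either column. All 8 members could be counted. None was called higher, where 13.3% of 12220 genes were, and 1 was called lower, where 8.82% of genes were. The members' median was -0.05, beside 0.02 over all genes counted, whose quartiles were -0.44 and 0.54. These shares and this median are near those of all genes, so nothing particular to the family is read from them.

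Gimap4 was the member called lower, with a relative log2 ratio of -1.61, or 3.12 times as much FPKM in FL as in BM. Its lower value stood beside lower values of macrophage and erythroid markers, of which 9 of 9 and 11 of 11 expressed genes were lower in BM (summed 213 and 6.45 FPKM for macrophage markers, 848 and 52.2 FPKM for erythroid markers, in FL and BM). Of 11 expressed endothelial markers 6 were lower and none higher (summed 333 and 192 FPKM), and of 3 expressed stromal markers 2 were higher (summed 10.9 and 13.6 FPKM). Fewer cells of a type and less RNA per cell cannot be told apart in such bulk samples, and the part of these cells in the Gimap4 value was not tested. The other 7 members lay between -0.65 for Gimap9 and 0.58 for Gimap5. Gimap8, Gimap3 and Gimap1 were at 0.29, 0.27 and 0.16, and Gimap7 and Gimap6 at -0.26 and -0.30. Without Gimap4 the family summed to 302 FPKM (FL) and 300 FPKM (BM).

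T, NK and B cells carry much GIMAP RNA, so their markers were read in the same columns. Of 16 T and NK cell markers 6 were expressed in the transcript table, 2 of them higher and 2 lower in BM, with sums of 20.4 FPKM (FL) and 34.8 FPKM (BM). The most abundant in FL was Lck, at 11.0 and 8.04 FPKM. The CD3 zeta gene Cd247 was at 0.132 and 2.75 FPKM. The other CD3 genes Cd3e and Cd3g were at 0.0354 and 0.0393 FPKM in FL and at 0.00984 and 0 FPKM in BM, and Cd3d was listed at 0 in all 4 columns of the tables. The T cell receptor gene Trbc2 was at 2.09 and 0.0433 FPKM, and the cytotoxic granule gene Nkg7 at 4.31 and 21.0 FPKM. Of 10 B cell markers 2 were expressed, Cd79b of the B cell receptor at 18.7 and 16.5 FPKM and Ighm at 2.92 and 0.394 FPKM. The part of lymphocytes in the Gimap values was not tested.

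**Figure D2:**
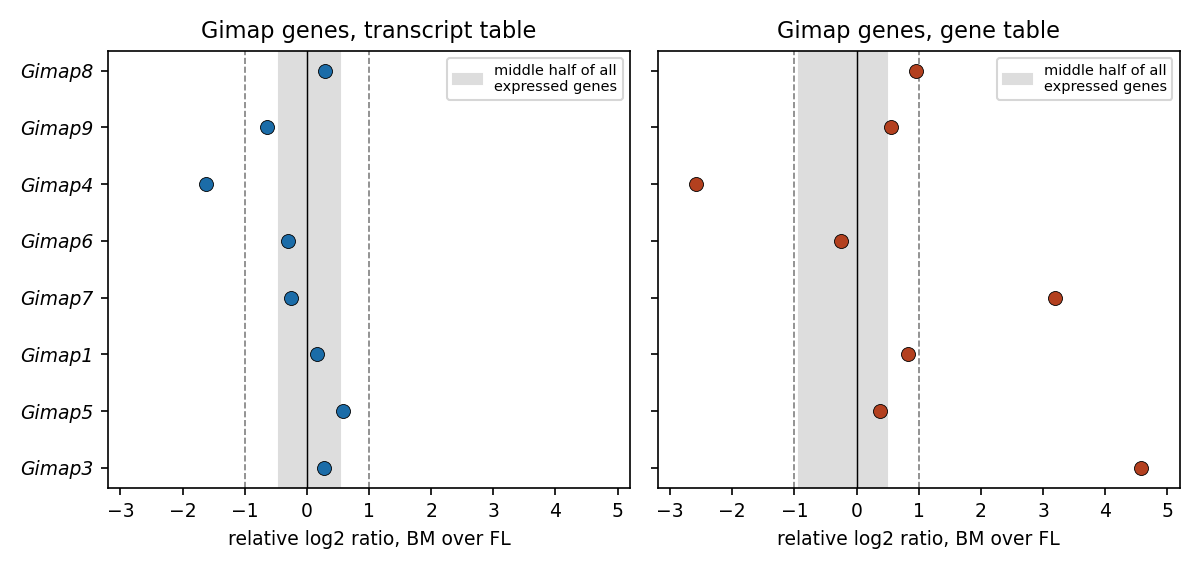
Relative log2 ratio of BM over FL for each Gimap gene in the transcript table (left) and the gene table (right); dashed lines mark 2-fold, and the grey band spans the quartiles of all expressed genes. In the transcript table Gimap4 alone lies beyond 2-fold, while in the gene table Gimap4 lies at -2.58 and Gimap7 and Gimap3 at 3.19 and 4.58.

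The gene table spread the family over a far wider range, and it also spread all genes more widely. Of the 8 members 2 were called higher in BM, where 12.3% of 13834 genes were, and 1 was called lower, where 23.6% of genes were. With 8 members, nothing particular to the family is read from these counts. The median gene was shifted by 0.24 (log2) in this table. Without removing that shift the shares were 17.2% and 20.4% and 4 members were called higher, Gimap1 at 1.06 and Gimap8 at 1.20 being added. The members' median was 0.68, beside -0.07 over all genes counted, whose quartiles were -0.92 and 0.50. Gimap3 and Gimap7 were counted through their BM values alone. Their relative log2 ratios of 4.58 and 3.19 rest on FL values below the pseudocount and move with it. Gimap3 was at 1.96 with a pseudocount of 1 FPKM and at 6.16 with 0.01 FPKM, and Gimap7 at 1.19 and 4.11.

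By the headers of the gene table Gimap4 was lower in BM, with a ratio of -2.58 and 5.11 times as much FPKM in FL. As the headers of the tables are in doubt, this does not repeat the transcript table's direction. Gimap6 was at -0.25. Gimap5, Gimap9, Gimap1 and Gimap8 were at 0.38, 0.55, 0.82 and 0.96, under the 2-fold line. The family without Gimap4 summed to 244 FPKM (FL) and 361 FPKM (BM), while with Gimap4 the sums were 290 and 370 FPKM. The share of Gimap4 in the family was 16.1% in FL and 2.48% in BM of this table, and 2.82% and 0.929% in the transcript table.

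The FL column of the gene table, where Gimap4 was high and Gimap3 and Gimap7 were near 0, was also rich in RNA of endothelial and stromal genes. All 12 endothelial markers were lower in BM (median -5.00, summed 3403 FPKM (FL) and 355 FPKM (BM)). They include Cdh5, the endothelial cadherin gene, at 457 and 7.97 FPKM and Pecam1, which encodes CD31, at 270 and 17.8 FPKM. All 9 stromal markers were lower as well (summed 788 and 11.8 FPKM), as were 7 of 9 expressed macrophage markers, with 2 higher (summed 709 and 224 FPKM). Erythroid markers were higher in BM for 7 of 11 and lower for 1 (summed 130 and 419 FPKM). HSC markers were mixed, with 5 of 12 higher and 4 lower in BM (summed 584 and 624 FPKM). Slamf1, a SLAM receptor gene, had 0.652 and 14.9 FPKM, while Cd34, which endothelial cells also express, was at 279 and 120 FPKM. The T and NK cell list had 5 expressed markers. The lower ones were the T cell receptor gene Trac at 1.82 and 0 FPKM and Lck, a T cell kinase gene, at 26.4 and 11.7 FPKM. The higher ones were Nkg7 at 0.368 and 6.89 FPKM and Cd4 at 0.448 and 1.94 FPKM. Of 3 expressed B cell markers 2 were lower. Ighm was at 23.3 and 3.05 FPKM. The part of endothelial, stromal or other cells in the Gimap values was not tested.

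Other GTPase families were set beside the Gimap genes. Over all genes counted, 13.3% were called higher and 8.82% lower in the transcript table, and 12.3% and 23.6% in the gene table. These shares also stand beside the counts of the lists that follow. Interferon-inducible GTPases, which act in defence against intracellular microbes, stood higher in BM of the transcript table: 12 of 13 that were expressed, and none was lower (median 1.85). Tgtp2 was at 7.67 FPKM (FL) and 88.9 FPKM (BM), and Gbp2 at 3.60 and 18.1 FPKM. Tgtp1 and Tgtp2 are close copies whose separate values are uncertain. No Gimap member was called higher in that comparison. Of 11 that were expressed in the gene table, 1 was higher and 4 were lower (median -0.10). Septins, which form cytoskeletal filaments, had 1 of 10 higher and 1 lower in the transcript table (median -0.33), with Sept1 at 137 and 115 FPKM. There were 2 of 10 septins higher and 5 lower in the gene table (median -0.65), where Sept1 was at 10.3 and 144 FPKM.

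Genes for reported partners and for survival proteins were mostly within 2-fold, as were most genes. Nothing particular to this list is read from its counts. Of 10 genes, 1 was higher and 1 lower in the transcript table (median -0.18). The survival gene Bcl2 was the higher one, at 3.27 FPKM (FL) and 15.2 FPKM (BM), and the death effector gene Bax the lower one, at 85.7 and 39.9 FPKM. Mcl1, a survival gene on which HSCs depend, was at 53.4 and 46.3 FPKM, and Gabarapl2 at 31.6 and 32.8 FPKM. The chaperone gene Hspa8 was at 1235 and 639 FPKM, a ratio of -0.96. None of the 10 was higher in the gene table and 1 was lower (median -0.23): Bcl2l11, a death-promoting gene, at 19.2 and 5.29 FPKM.

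Lymphoid priming and lymphocyte survival genes formed the last list. Of 13 expressed members, 2 were higher and 3 lower in BM of the transcript table (median -0.34). Ikzf1, which encodes the lymphoid regulator Ikaros, was at 89.4 FPKM (FL) and 19.8 FPKM (BM), and the costimulatory receptor gene Cd27 at 54.7 and 64.8 FPKM. Of 15 expressed in the gene table, 7 were higher and 5 lower (median 0.64). There Ikzf1 was at 13.9 and 151 FPKM, and Klf2, a factor gene of quiescent lymphocytes and of endothelium, at 115 and 1.53 FPKM. The Gimap median was 0.68 and that of the HSC markers 0.63 in that table, so a median near 0.64 is not particular to this list.

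**Figure D3:**
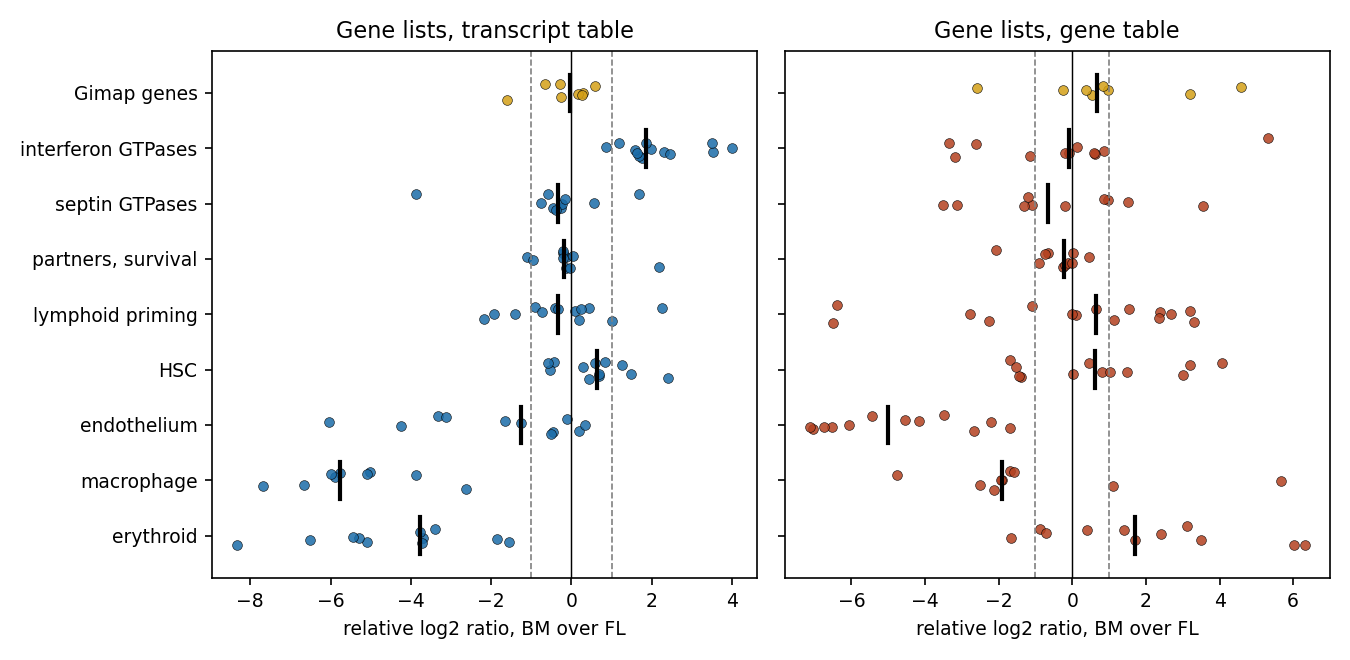
Relative log2 ratio of BM over FL for the expressed members of 9 gene groups, transcript table left and gene table right; each point is a gene, the black bar is the group's median and dashed lines mark 2-fold. The Gimap genes centre near 0 in the transcript table, where interferon-inducible GTPases centre at 1.85, and endothelial markers centre at -5.00 in the gene table.

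The transcript table also gave the make-up of each gene. Gimap3, Gimap7 and Gimap8 had 1 linked transcript each, and the other members had 2 to 6. The main transcript was the same in both columns for the 5 genes with several. Gimap6 was nearly all Gimap6-201, at 96.6% of the gene in FL and 95.9% in BM. Gimap5 kept its make-up while its level differed: the coding Gimap5-201 was 62.5% in FL and 62.1% in BM, and the non-coding Gimap5-202 was 30.0% and 29.7%. All 3 Gimap5 transcripts were higher in BM by 0.56 to 0.66.

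Gimap1 and Gimap4 showed shifts among their transcripts, as did the minor transcripts of Gimap6. Gimap1-201 was at 104 FPKM (FL) and 105 FPKM (BM), and Gimap1-202 at 13.1 and 26.7 FPKM, so that Gimap1-202 held 10.9% of the gene in FL and 19.7% in BM. The intron-retaining Gimap1-203 was at 3.24 and 3.55 FPKM. The main Gimap4-202 was at 7.01 and 2.42 FPKM, a ratio of -1.50 close to that of the whole gene. Gimap4-203 was at 0.983 FPKM (FL) and 1.26e-06 FPKM (BM), and Gimap4-205 at 0.0428 and 0.307 FPKM, all under 1 FPKM. Gimap6-202 was at 1.86 FPKM (FL) and 4.02 FPKM (BM), or 1.55% and 4.09% of its gene. Gimap6-203 was at 1.93 and 3.32e-06 FPKM. Reads shared by overlapping transcripts have to be divided by a model, so values of minor transcripts are estimates.

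**Figure D4:**
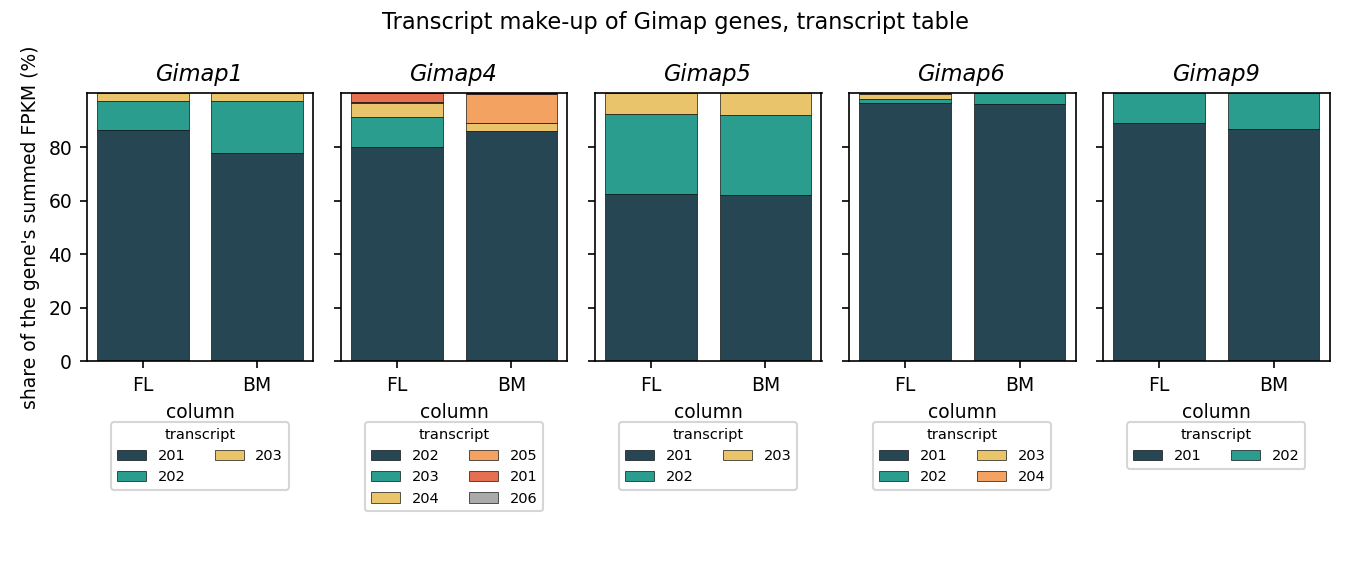
Share of each gene's summed FPKM (%) held by its linked transcripts in FL and BM of the transcript table, for the 5 Gimap genes with more than 1 linked transcript; the legends give the transcript number. Gimap5 and Gimap6 look alike in both columns, while Gimap1-202 takes 10.9% in FL and 19.7% in BM.

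Shared sequence between members could mix their values, and this was measured on the main transcripts. Over 28 pairs the coding sequences had a median identity of 49.3%. Gimap3 and Gimap5 were the closest pair at 86.1%, followed by Gimap7 and Gimap9 at 64.5%, as shares of the alignment length with gaps counted. Of the windows of 75 bases in Gimap3, 4.38% occurred in Gimap5 as well, and none in another gene. At 100 bases the share was 2.19%. Gimap4, Gimap6, Gimap8 and Gimap9 shared no window of 75 bases with transcripts of other genes. Gimap3 was at 0.0335 FPKM in FL of the gene table, and Gimap5 at 15.0 FPKM. Whether reads of Gimap3 and Gimap5 were mixed was not tested.

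Overlapping genes touch Gimap1, Gimap5 and Gimap7. A longer annotated gene, Gm28053, spans them, and 8.74% of the 75-base windows of Gimap1 and 4.26% of those of Gimap5 were shared with it. Gm28053 was at 0.909 FPKM in FL of the transcript table and listed near 0 in BM. Gimap1os, an antisense gene over Gimap1, was at 6.96 and 6.33 FPKM in the transcript table and at 1.33 and 7.38 FPKM in the gene table, a called ratio of 2.15. The sources used here do not state whether counting used strand, so reads of Gimap1 and Gimap1os may not have been told apart.

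The cluster was then compared with the genes on its flanks. Of the 5 nearest protein-coding genes on each side, 5 of 10 could be counted in each table. None was called in the transcript table, where 13.3% of all genes counted were called higher and 8.82% lower. The gene table had 2 called higher in BM and none lower, where 12.3% and 23.6% of all genes counted were. With so few genes, nothing particular to the flanks is read from these counts. On the Gimap8 side, the zinc finger gene Repin1 was at 40.2 FPKM (FL) and 42.3 FPKM (BM) of the transcript table, and at 10.5 and 44.7 FPKM in the gene table. AI854703, next to Gimap8, was at 2.45 and 2.10 FPKM and at 1.01 and 4.28 FPKM. On the Gimap3 side, the membrane protein genes Tmem176b and Tmem176a were at 113 and 46.1 FPKM in FL and 198 and 92.0 FPKM in BM of the transcript table, ratios of 0.80 and 0.99. In the gene table they were at 0.26 and -0.13. Gimap4 had the lowest ratio of the counted genes of this stretch in each table by its own headers. Its neighbours Gimap9 and Gimap6 were within 2-fold. Given the doubt about the headers, this is no repeat of a direction.

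**Figure D5:**
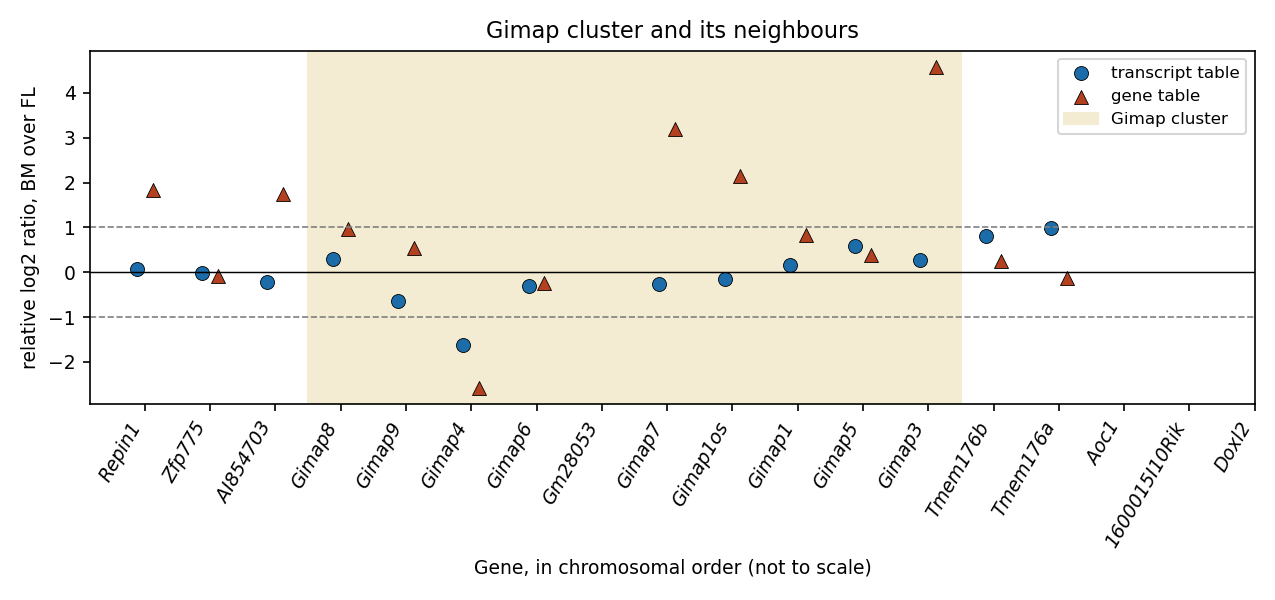
Relative log2 ratio of BM over FL along the Gimap cluster (shaded) and its protein-coding neighbours in chromosomal order, not to scale; circles are the transcript table, triangles the gene table, and genes under 1 FPKM in both columns have no point. Gimap4 dips to -1.61 and -2.58 between neighbours that stay within 2-fold.

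Genes with a profile most like the summed Gimap family were sought over the 4 columns, as the smallest root mean square difference of log2(FPKM + 0.1) after centring each gene. The tables were normalised separately, so this compares shapes only. The nearest were Bcas3 at 0.01, Zscan12 at 0.01, Spryd3 at 0.02, Opa1 at 0.03 and Rmnd1 at 0.03. Such a flat profile was common: 3009 of 8796 genes at 5 FPKM or more in each table, members included, lay within 0.25.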

How the data were processed

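The authors deposited FPKM values in a gene table and a transcript table, per the file headers 1 column FL and 1 column BM each. Per the submitters' processing notes, the tools were TopHat, Cufflinks, featureCounts (Subread) and edgeR and the build mm9, with no role, order or version. The sources used here do not state how libraries were averaged. Columns headed BM were assigned to adult bone marrow HSCs by header, and FL to fetal liver from the protocol.

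Identifiers were matched to GENCODE M21 by ID alone. Transcript FPKM were summed per gene from 76507 linked transcripts of 87641, so a sum is too low where a transcript was not linked. No count model or test was used. The call procedure was tested on simulated data. Members and lists (11 gene lists) were chosen with earlier results of these data known. Named genes were all members, their neighbours, the highest list members and those singled out as called. A few, such as Trac, Cd247, Cd34, Ighm, Slamf1, Sept1, Cd3d, Cd3e and Cd3g, were chosen after their values were seen. Alternatives tried were the pseudocount, centring, upper-quartile scaling, the filter on low values and the most abundant transcript. Calculations used Python 3.11.15, numpy 2.4.6, pandas 2.3.3 and Biopython 1.88, with matplotlib 3.10.9 for figures.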

Additional observations from a re-analysis of the deposited data

How the results depend on the processing

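Of 100 member ratios recomputed under the alternatives listed with the methods, 98 stayed on their side of the 2-fold line, 2 moved across it and 0 reversed. The filter on low values decides only whether a member is counted, so ratios under its settings could not change. They are among the 98. A reversal was scored only for ratios that were at least 2-fold as reported. The 2 were Gimap1 and Gimap8 in the gene table without centring, at 1.06 and 1.20, where centring takes off the 0.24 shift of the median gene. The count of members called higher in the gene table, 2 as reported, was then 4. With a filter at 5 FPKM it was 0, since Gimap3 and Gimap7 were no longer counted. The members' median in the gene table, 0.68 as reported, was 0.92 without centring, 0.55 with upper-quartile scaling and 0.46 with the filter at 5 FPKM. Counts and median of the transcript table (median within 0.1 on the log2 scale), and the count of 1 lower in the gene table, held under every alternative run. No paired analysis was possible because the columns are means that carry no replicate numbers. For the same reason no library could be left out, and the depth behind each value is unknown, so low values such as those of Gimap3 and Gimap7 have no stated precision.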
